A study of Homo sapiens with 10 samples.

Results

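ERV1 is the class of human endogenous retroviruses that descends from gammaretrovirus-like germline infections. Its copies are sorted into subfamilies by sequence. All ERV1 subfamilies in the table other than the HERVH internal part and its LTR7, LTR7B, LTR7C and LTR7Y were taken, which gave 269 of the 274 ERV1 rows and 269 of 14785 rows in all. Of these, 206 were long terminal repeats (LTRs) and 63 were internal parts, whose names end in "-int". The table also held 13808 genes and 973 transposable element subfamilies, the 269 among them.

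The RNA came from H1 cells, an established human embryonic stem cell line. The cells received packaged virus carrying a short hairpin RNA (shRNA) and were selected with puromycin. The control hairpin, shLUC, targets luciferase, and the others were directed against SMARCA4, MAFK, E2F6 or KDM1A. There were 2 libraries in each of the 5 groups, 10 in all, described as biological duplicates and made from total RNA. All groups therefore shared the virus, the hairpin cassette and the selection, and each target is represented by 1 group label, so a second hairpin sequence against the same target was not analysed here. No label gives the culture behind each duplicate, and p-values measure only the spread between these libraries. SMARCA4 is the ATPase of the BAF chromatin remodelling complex. MAFK is a small Maf transcription factor, E2F6 a repressive E2F protein, and KDM1A (LSD1) a histone H3 lysine 4 demethylase.

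An ERV1 provirus carries its genes in an internal part between a pair of LTRs, which hold the promoter and the polyadenylation signal. Most copies in the human genome are solitary LTRs left by recombination, and some of these act as promoters or enhancers of neighbouring genes. In embryonic stem cells many are silenced by KRAB zinc finger proteins, which recruit TRIM28 and the H3K9 methyltransferase SETDB1, while DNA methylation and KDM1A have also been tied to retroviral silencing. A few ERV1 proviruses have kept an open reading frame for an envelope-derived protein.

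The subfamily rows sum reads over many genomic copies, so they have no single position or sequence. For 3 single copies with their own gene row, the start of the longest open reading frame is shown, because these are the ERV1 transcripts whose letters can be read and whose levels can be set beside their subfamily. They are ERVH48-1 (chr21:42916803-42925646, minus strand, 160 codons), a copy of HERVH48 that encodes suppressyn, ERV3-1 (chr7:64990809-65006743, minus strand, 604 codons), an envelope gene of HERV3, and ERVMER34-1 (chr4:52722618-52751640, minus strand, 563 codons), an envelope gene of MER34. Coordinates and sequences are from the GENCODE transcripts on GRCh38, written 5′ to 3′ with the start codon in capitals.
ERVH48-1: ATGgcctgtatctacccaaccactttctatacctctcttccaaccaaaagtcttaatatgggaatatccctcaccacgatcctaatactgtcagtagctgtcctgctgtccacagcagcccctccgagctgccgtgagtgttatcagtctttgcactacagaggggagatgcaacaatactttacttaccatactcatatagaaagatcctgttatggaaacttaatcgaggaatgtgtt
ERV3-1: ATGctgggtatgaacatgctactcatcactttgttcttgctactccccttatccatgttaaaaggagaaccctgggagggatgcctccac
ERVMER34-1: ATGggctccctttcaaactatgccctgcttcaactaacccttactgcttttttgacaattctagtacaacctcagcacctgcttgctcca

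Each value is a tag count that the authors normalized and rounded to a whole number. The totals were nearly equal, 22836548 to 22855295 per library, so the sequencing depth behind a value is unknown and no counting interval is given. How a read that matches several copies was assigned is not given in the sources used here, and reads may be shared between related subfamilies. The pluripotency genes fixed as markers of these cells were present in all 10 libraries (10 of 10 genes, 1640 to 148866). The targeted gene was lower in both libraries of its knockdown for SMARCA4 (1100 and 985, against 8086 and 8374 in shLUC), E2F6 (336 and 304 against 491 and 553) and KDM1A (3290 and 1879 against 6344 and 5925). MAFK stood at 82 and 216 against 212 and 288, so its second library overlapped the controls. Only the difference in SMARCA4 passed the test (limma adjusted p = 8.55e-05), with an adjusted p of 0.572 for MAFK, 0.774 for E2F6 and 0.132 for KDM1A.

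All 269 listed subfamilies were detected in every library, and none was at 0. Each reached 80 in at least 2 libraries, so the deposited table may leave out lower rows. Their detection may thus be partly fixed by which rows the table holds. Their mean values over the 10 libraries ran from 58.9 to 13999.1 with a median of 335.6. The median was 827.4 for the other transposable element rows, 303.6 for the 38 ERVK, 398.2 for the 115 ERVL and 1028.9 for the 76 ERVL-MaLR subfamilies. These are summed values per row and are not corrected for length or copy number, so they do not rank expression per copy. Internal parts had a median of 444.7 and LTRs of 296.0. Together the 269 rows made up 0.683% to 0.829% of a library's total and 4.55% to 5.35% of its transposable element tags.

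**Figure D1:**
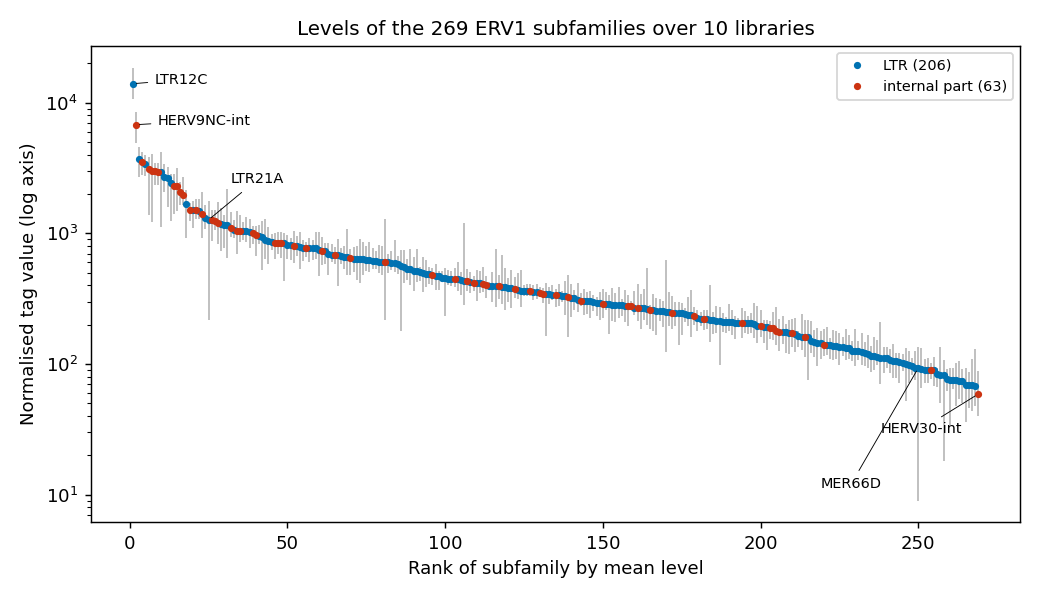
Mean normalised tag value of each of the 269 ERV1 subfamilies over 10 libraries (points, log axis) against its rank, with the lowest and highest library as a grey line. LTR12C and HERV9NC-int stand above the others, and MER66D and LTR21A have a single library far below their mean.

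The highest row was LTR12C, an LTR of the HERV9 family, which alone held 8.24% of the summed value of the 269 rows. It stood at 14834 and 13575 in shLUC, 18607 and 15759 with shKDM1A, 14834 and 11635 with shE2F6, 14834 and 13159 with shMAFK, and 11997 and 10757 with shSMARCA4. Both shSMARCA4 libraries lay below the controls and both shKDM1A libraries above them, by -0.32 (SE 0.16, adjusted p = 0.381) and 0.27 (adjusted p = 0.507) on the log2(value + 1) scale, and neither difference passed the test in limma. The internal part of the same family, HERV9NC-int, came next with a mean of 6799.3 and overlapped the controls in each of the 4 knockdowns. After these came MER110A (3727.4), MER41-int (3524.4), MER61A (3398.4), HERV4_I-int (3140.1), MER34B-int (2993.7) and HERVIP10B3-int (2980.2). The top 8 rows held 23.9% of the summed value, 39 rows had a mean of at least 1000, and 24 had one under 100. The lowest were HERV30-int (58.9), MER72B (68.4), LTR35A (68.5), MER83C (68.6) and MER92D (69.4).

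Most subfamilies varied little. The median SD of the log2 values over all 10 libraries was 0.216, against 0.195 for the other transposable element rows and 0.275 for genes. MER110-int varied least (SD 0.065, 261 to 304), followed by MER34C_, LTR24B, ERV24B_Prim-int and LTR71B (SD 0.073 to 0.090). MER66D varied most (SD 1.08), and its spread came from 1 library. It was at 9 in shKDM1A replicate 1 and at 84 to 134 in the other 9. LTR21A (SD 0.878), LTR21B (0.722), LTR46-int (0.645) and MER52D (0.626) followed, and each had its lowest or its highest value in that same library.

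shKDM1A replicate 1 stood apart before any comparison. Of the 269 subfamilies, 67 were above and 76 below all 8 libraries of the other groups, 53.2% in all, against 51.9% of genes and 63.6% of the other transposable element rows. In shKDM1A replicate 2 the numbers were 71 above and 4 below, or 27.9%. The pooled SD between duplicates was 0.423 on the log2 scale in shKDM1A, and 0.169 to 0.236 in the other groups. The library also carried more RNA of 2 collagen genes fixed as fibroblast markers, COL1A1 (8374, against 311 to 6578 elsewhere) and COL1A2 (13159, against 2483 to 4228), while VIM was at 3394 in a range of 876 to 3873. The sum of these 3 detected markers out of 4 was 24927 there and 3840 to 12153 in the other 9 libraries. The pluripotency gene POU5F1 was at 148866 there, against 16615 to 51684 elsewhere. HERVH-int also held 148866, from the value set that the libraries share, so the size of this step is uncertain. No other pluripotency gene had its highest value there. DPPA4 was at 12828, against 15759 to 27326 elsewhere, and NANOG (1704), SALL4 (2910) and ZFP42 (3738) were at or near their lowest. NES, the 1 ectoderm marker detected of 4, was at 10757, against 3168 to 7576. The part of these markers in the ERV1 values was not tested, and in bulk RNA fewer cells of a type and less RNA per cell cannot be told apart.

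The median level of the subfamilies also differed from library to library. Relative to the shLUC mean, the median log2 difference over the 269 rows was 0.02 and 0.18 in the shKDM1A libraries, -0.03 and 0.15 in the shSMARCA4 libraries, 0.08 and 0.09 with shE2F6, and 0.06 and -0.01 with shMAFK. The duplicates of shSMARCA4 and of shKDM1A thus differed from each other by more than their mean differed from the controls, which themselves lay at 0.05 and -0.05. The other transposable element rows gave -0.03 and 0.17 in shSMARCA4 and -0.09 and 0.16 in shKDM1A.

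**Figure D2:**
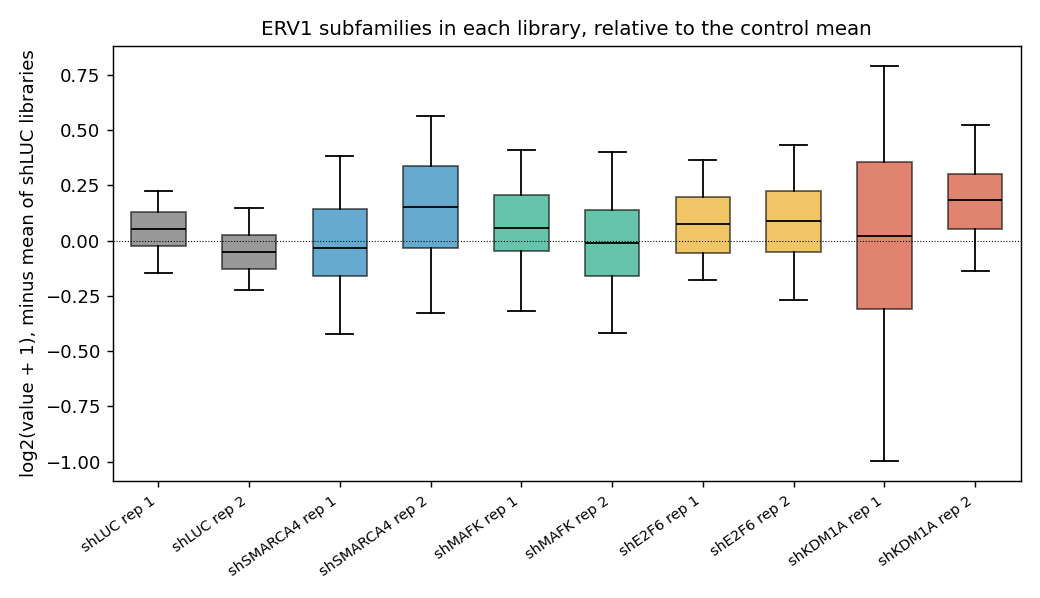
Log2(value + 1) of the 269 ERV1 subfamilies in each library minus the mean of both shLUC libraries. Boxes span the quartiles with the median as a line, and whiskers the 5th to 95th percentiles. shKDM1A replicate 1 has the widest box, and the medians of all 10 libraries lie between -0.05 and 0.18.

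Each knockdown was compared with shLUC to ask whether losing a chromatin or transcription factor moved these retroviral RNAs. No subfamily passed the threshold of an adjusted p under 0.05 in any of the 4 comparisons (limma on all 14785 rows, Benjamini-Hochberg adjustment, 2 libraries against 2). Of all rows, 4.18% passed with the SMARCA4 hairpin, 0.0271% with the KDM1A hairpin, 0.0135% with the MAFK hairpin and 0.0% with the E2F6 hairpin. The 95% interval of a subfamily's log2 difference reached a median of 0.478 to either side. It lay wholly within a 2-fold difference in either direction for 250 subfamilies with the E2F6 hairpin, 248 with MAFK, 239 with SMARCA4 and 219 with KDM1A. The fit gave all groups 1 shared estimate of the spread. Duplicates differed more in shKDM1A (pooled SD 0.423) than in the other groups (0.169 to 0.236). The intervals are therefore likely too narrow for shKDM1A and too wide for the others. Differences smaller than 2-fold could not be resolved for most rows with 2 libraries a group. The 4 comparisons share the shLUC libraries.

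In shSMARCA4 the subfamilies with the largest differences and no overlap were HERVI-int and LTR49-int on the low side and LTR1C3, LTR46-int and HUERS-P1-int on the high side. HERVI-int, the internal part of the HERV-I group, was at 162 and 220 against 369 and 278 in shLUC, a log2 difference of -0.76 (SE 0.24, adjusted p = 0.131 in limma). LTR49-int, an internal part, was at 1497 and 1586 against 2474 and 2258, a log2 difference of -0.62 (SE 0.19, 95% interval -1.04 to -0.20, adjusted p = 0.12). Neither pair overlapped the controls, and both shSMARCA4 libraries held the lowest values of the 10 for these rows. LTR77 (118 and 96 against 187 and 134) and LTR27B (129 and 124 against 197 and 170) were the next lowest.

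LTR1C3, an LTR of the HUERS-P2 group, was at 114 and 135 in shSMARCA4 against 65 and 50, a log2 difference of 1.11 (SE 0.33), and had the smallest adjusted p of the 269 in that comparison (0.11 in limma). HUERS-P1-int was at 1709 and 2090 against 1346 and 1072, a difference of 0.65 (SE 0.21, adjusted p = 0.144). MER41D was at 442 and 536 against 324 in both controls, by 0.59 (SE 0.20, adjusted p = 0.174), and LTR46-int at 633 and 1278 against 548 and 520, by 0.75 (SE 0.42, adjusted p = 0.448). LTR46-int shows a wide gap between the duplicates. LTR1C3 and LTR49-int passed when the shKDM1A libraries were left out of the fit (adjusted p = 0.0358 and 0.042), and both passed with HERVI-int when each group had its own variance weight (0.0341, 0.0321 and 0.0432).

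The shares of the 269 in shSMARCA4 were below those of the whole table but above those of the other transposable element rows. These differences were not tested. At an unadjusted p under 0.05, 6 were higher and 3 lower, 2.23% and 1.12%, where 7.78% and 8.53% of all rows did so. The other transposable element rows gave 1.99% and 0.426%. Both libraries lay above both controls for 66 subfamilies (24.5%) and below for 33 (12.3%). The shares were 25.6% and 25.4% of all rows, and 18.3% and 6.82% of the other transposable element rows. The median log2 difference was 0.08, against 0.01 for all rows and 0.07 for the other transposable element rows. Centring the libraries on the median level of transposable element rows (TE-median centring) lowered the median of all rows by 0.11 and gave -0.03 for the 269, with 2 higher and 7 lower at an unadjusted p under 0.05. Of all rows, 4.82% were then higher and 10.7% lower at that p. Markers of early mesoderm and endoderm stood higher in both shSMARCA4 libraries, unequally: MIXL1 was at 1809 and 132 against 20 and 14, EOMES at 2430 and 724 against 14 and 34, and FOXA2, the 1 endoderm marker detected of 4, at 792 and 170 against 4 and 2. In the other groups MIXL1, EOMES and FOXA2 stood at 0 to 34. Each of the 269 subfamilies reached 80 in at least 2 libraries, so the deposited table may have been filtered near that level. Under such a filter these genes would be listed only because they are high in shSMARCA4. MIXL1 passed the test (adjusted p = 0.0365 in limma), but its rise is then no independent support. Of the 10 pluripotency genes, 0 passed. SOX2 (4426 and 4748 against 6408 and 6928), LIN28A and TDGF1 were lower and NANOG higher (4613 and 3699 against 2512 and 2639) at an unadjusted p under 0.05. The 2 mesoderm markers detected out of 4 summed to 4239 and 856, and to 10 to 58 in the other 8 libraries, and the part of these markers in the ERV1 values was not tested. On the other side, VIM and COL1A1 were lower and KRT7, the 1 trophoblast marker detected of 4, was at 30 and 44 against 125 to 360 elsewhere.

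In shMAFK the differences were smaller and none reached 2-fold. MER52A, an LTR of the MER52 family, was at 668 and 809 against 498 and 551, a log2 difference of 0.49 (SE 0.19), with the smallest adjusted p of the 269 (0.486). LTR1F1 was at 96 and 92 against 54 and 68, MER101B at 82 and 91 against 50 and 62, LTR1E at 112 and 116 against 70 and 86, and LTR1A2 at 644 and 660 against 430 and 495, with log2 differences of 0.63, 0.62, 0.55 and 0.50 and adjusted p of 0.507 to 0.717 in limma. In all 5 the libraries did not overlap the controls. LTR21A (-0.55), MER4A (-0.45), MER48 (-0.43) and LTR43-int (-0.41) were the lowest without overlap, with adjusted p of 0.532 to 0.934.

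At an unadjusted p under 0.05, 6 subfamilies were higher and 2 lower in shMAFK, against 4.27% and 4.49% of all rows. With TE-median centring this became 0 and 2, against 3.21% and 4.19% of all rows. Both libraries were above the controls for 67 (24.9%) and below for 37 (13.8%), against 23.8% and 25.3% of all rows. The other transposable element rows gave 25.9% and 8.95%. The median log2 difference was 0.03.

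In shE2F6 no ERV1 subfamily was lower at an unadjusted p under 0.05 and 4 were higher, against 2.54% and 2.55% of all rows. MER50C, an LTR of the MER50 family, was at 116 and 132 against 86 and 65, a log2 difference of 0.72 (SE 0.26, adjusted p = 0.925 in limma, the smallest of the 269). LTR1C3 (83 and 98 against 65 and 50), HERVFH21-int (230 and 260 against 166 and 178) and LTR35B (203 and 284 against 176 and 164) followed, with log2 differences of 0.65, 0.51 and 0.50. The lowest without overlap were LTR72B (-0.38), LTR43 (-0.27), LTR35 (-0.25) and MER65B (-0.23). Both shE2F6 libraries lay above the controls for 72 subfamilies (26.8%) and below for 16 (5.95%), where 20.3% and 20.4% of all rows did so. The other transposable element rows gave 20.3% and 7.53%. The median log2 difference of 0.07 was 0.00 after TE-median centring, which lowered the median of all rows by 0.07.

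In shKDM1A more subfamilies were higher than lower, 172 against 96, and many differed widely between the duplicates. At an unadjusted p under 0.05, 28 were higher and 2 lower, 10.4% and 0.743%, where 5.85% and 5.61% of all rows and 7.67% and 0.142% of the other transposable element rows did so. The counts were 6 and 2 when each group had its own variance weight, and 8 and 0 when only the shKDM1A and shLUC libraries were fitted. TE-median centring, which lowered the median of all rows by 0.19, turned the 28 and 2 to 3 higher and 23 lower and the median log2 difference from 0.08 to -0.10. Of all rows, 2.05% were then higher and 16.6% lower at that p. With replicate 1 left out and no centring, more were higher than lower at an unadjusted p under 0.05. No share of all rows is given for this fit, for the group weights or for the fit of shKDM1A and shLUC alone. Those counts are therefore not read as a trait of ERV1. Both libraries lay above the controls for 98 subfamilies (36.4%) and below for 9 (3.35%), against 17.9% and 20.9% of all rows. The shares were 50.4% and 1.74% for ERVL, 46.1% and 5.26% for ERVL-MaLR, and 5.26% and 2.63% for ERVK. The other transposable element rows together gave 27.0% and 5.11%. At an unadjusted p under 0.05, 13.0% of ERVL, 11.8% of ERVL-MaLR and 0.0% of ERVK rows were higher. Taken alone, shKDM1A replicate 1 was above both controls for 116 and below for 110, and replicate 2 for 181 and 18. Replicate 2 thus lay mostly above the controls, and replicate 1 about as often below as above them. No share over all rows is given for these single-library counts, so they describe the libraries and no trait of ERV1.

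MER52A was at 1090 and 810 in shKDM1A against 498 and 551 in shLUC, a log2 difference of 0.84 (SE 0.19), with the smallest adjusted p of the 269 (0.195 in limma). MER52D was at 1200 and 482 against 322 and 332, by 1.22 (SE 0.35, adjusted p = 0.315). LTR35B was at 624 and 260 against 176 and 164, by 1.24 (SE 0.40, adjusted p = 0.345). Both shKDM1A libraries were above every other library for MER52A and MER52D, but replicate 1 was far above replicate 2 for MER52D and LTR35B. LTR1E (209 and 108 against 70 and 86) and MER72B (131 and 76 against 54 and 52) showed the same inequality.

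LTR21A was at 218 and 1346 in shKDM1A against 1780 and 1415, a log2 difference of -1.55 (SE 0.64, adjusted p = 0.412 in limma). MER34B-int was at 1232 and 2892 against 4036 and 3151, by -0.92 (SE 0.36, adjusted p = 0.407). LTR46-int (216 and 510 against 548 and 520) and LTR26B (34 and 68 against 70 and 76) were the next lowest. For all 4 the second library lay just under the controls, so the fold rests on replicate 1. Without replicate 2, that is with replicate 1 as the only knockdown library and its spread assumed equal to that of the other groups, 39 subfamilies passed, 17 higher and 22 lower, or 14.5% against 21.9% of all rows. Replicate 2 was also above both controls for 14 of the higher and below for 4 of the lower subfamilies. Among all the ERV1 subfamilies, replicate 2 lay above both controls for 181 and below for 18. The 14 and the 4 are therefore not read as high rows repeating and low rows failing to repeat. Without replicate 1, no subfamily passed.

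The split of shKDM1A replicate 1 varied with the level of the row. Among the 67 subfamilies of the highest mean level, 60 were lower in replicate 1 than in replicate 2 (median log2 ratio -0.43). Among the 68 of the lowest mean level, 28 were lower (median 0.07). MER52D, MER41G (541 and 221), LTR35B and MER67A (754 and 372) were higher in replicate 1 by the widest margins, and MER66D (9 and 101), LTR21A, LTR21B (18 and 96) and LTR6B (178 and 620) were lower. LTR21A and LTR21B belong to 1 LTR family, and so do LTR6A (1126 and 2891) and LTR6B. Every other library held LTR21B at 78 to 108.

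**Figure D3:**
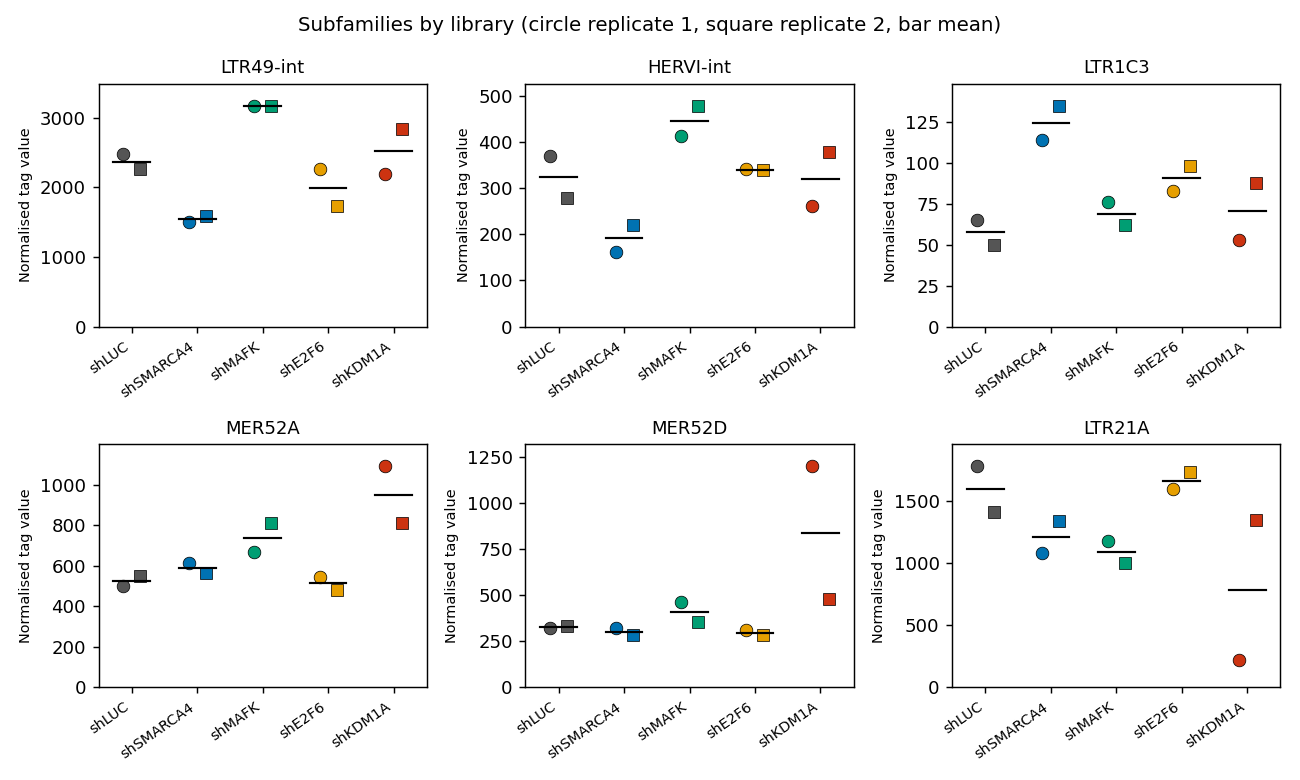
Normalised tag values of 6 subfamilies in each library (circle replicate 1, square replicate 2, bar mean of 2). The shSMARCA4 points of LTR49-int and HERVI-int lie below and those of LTR1C3 above all other libraries. In MER52D and LTR21A shKDM1A replicate 1 lies far from its duplicate.

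A moderated F-test in limma asked whether the 4 knockdowns differed among themselves, and 1 subfamily passed it (adjusted p under 0.05), against 6.64% of all rows. This was LTR49-int (adjusted p = 0.0376), which ran from 1497 and 1586 in shSMARCA4 through 2258 and 1723 in shE2F6 and 2191 and 2842 in shKDM1A to 3170 in both shMAFK libraries. The shSMARCA4 and shMAFK libraries lay on either side of the controls and did not overlap any other group. The equal shMAFK values reflect the shared value set of the normalized libraries and are no measure of precision. Its adjusted p rose above 0.05 when any 1 library of shLUC, shSMARCA4 or shMAFK, or shE2F6 replicate 2, was left out (0.0597 to 0.153). HERVI-int followed the same order of shSMARCA4 lowest and shMAFK highest (413 and 478) with an adjusted p of 0.053, and MER52A came next (0.065). The count rose when either shKDM1A library was left out. No share of all rows is given for those fits, so nothing about ERV1 is read from the rise. At an unadjusted p under 0.05, 17 subfamilies differed among knockdowns, 6.32% against 23.6% of all rows.

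The shared stem of the names groups the subfamilies into families, which hold related sequences and are not independent measurements. The MER52 family, MER52-int with the LTRs MER52A, MER52C and MER52D, was above both controls for 4 of 4 rows in shMAFK (median log2 difference 0.34) and in shKDM1A (0.73), where 23.8% and 17.9% of all rows were, and all 4 remained higher with TE-median centring (0.32 and 0.54). Library by library the family medians were 0.30 and 0.29 in shMAFK and 1.00 and 0.42 in shKDM1A. The LTR1 family, HUERS-P2-int and 9 LTRs, was higher for 10 of 10 rows in shKDM1A (median 0.49; 9 of 10 with TE-median centring) and for 9 of 10 in shMAFK (0.31), 9 of 10 in shE2F6 (0.13) and 8 of 10 in shSMARCA4 (0.12), the last 2 counts being 7 and 6 with TE-median centring. Its median lay above the shLUC mean in all 8 knockdown libraries, which share these controls, and was 0.59 and 0.53 in the shKDM1A duplicates. Its rows did not all repeat between those duplicates. LTR1 was at 150 and 168 against 114 and 94, and LTR1F at 162 and 154 against 92 and 116. LTR1D was at 406 and 204 against 211 and 187, LTR1C3 at 53 and 88 against 65 and 50, and LTR1F2 at 48 and 94 against 64 and 70. The LTR9 family was higher for 7 of 7 rows in shKDM1A (median 0.33), but for 4 of 7 with TE-median centring. Of all rows, 47.9% were higher in shKDM1A, 49.1% in shMAFK, 49.2% in shE2F6 and 50.9% in shSMARCA4. Of the 269 subfamilies, the shares in the same order were 63.9%, 56.5%, 69.5% and 65.4%.

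Other families moved with a single library. The LTR6 family had medians of -1.43 in shKDM1A replicate 1 and 0.03 in replicate 2, the MER4 family -0.49 and 0.21, and the LTR2 family, LTRs and internal parts of HERV-E, -0.56 and 0.12. All 7 MER41 rows were lower in shMAFK (median -0.14, lowest MER41-int at -0.25), with or without TE-median centring, but only 1 of them without overlap. Of the 13 MER4 rows 10 were lower in shMAFK (median -0.18) and 4 without overlap. Of all rows, 25.3% were lower without overlap there. The 9 rows of the LTR12 and HERV9 family spread on both sides of 0 in each of the 4 comparisons, with medians from -0.06 in shSMARCA4 (-0.17 with TE-median centring) to 0.25 in shKDM1A (0.07).

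**Figure D4:**
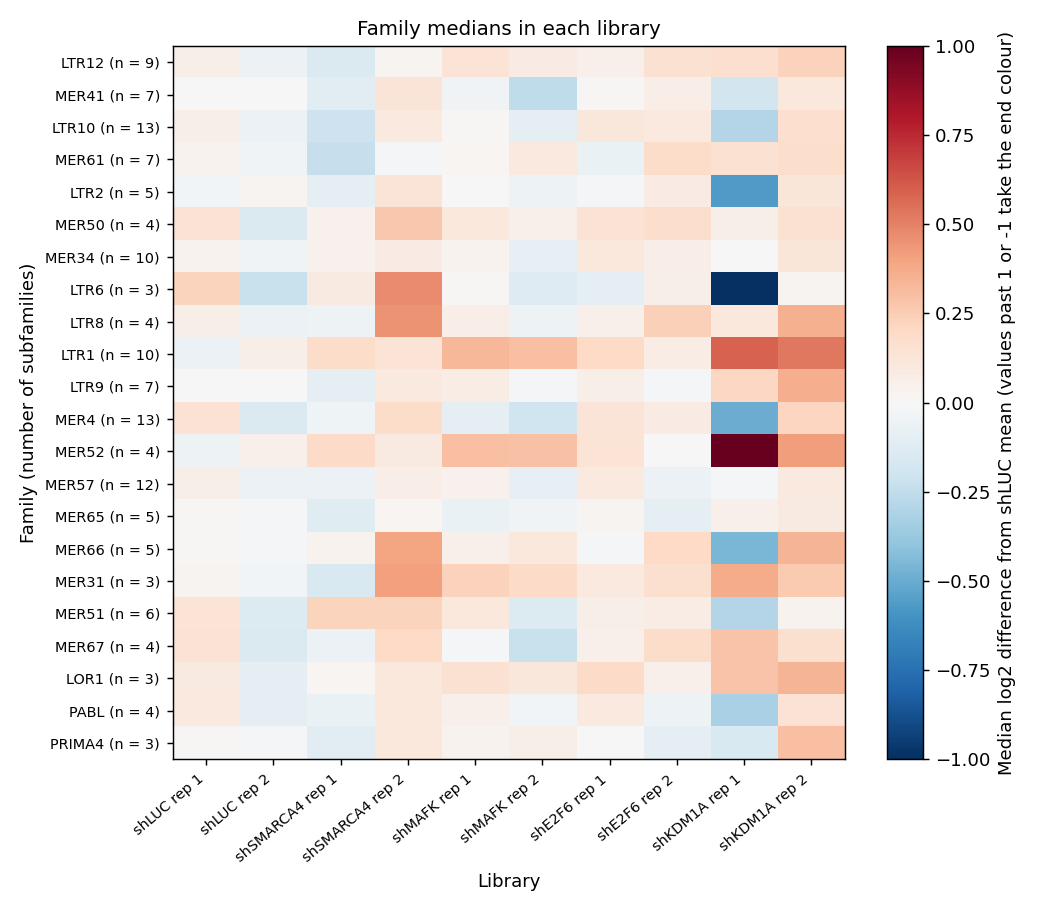
Median log2(value + 1) difference from the shLUC mean over the subfamilies of each family with at least 3 rows, in each of the 10 libraries (red higher, blue lower). LTR1 and MER52 are red in both shMAFK and both shKDM1A libraries, whereas LTR6, LTR2 and MER4 are blue in shKDM1A replicate 1 only of its pair.

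Internal parts and LTRs differed little in their medians, which were 0.07 and 0.10 in shKDM1A, 0.07 and 0.07 with shE2F6, 0.01 and 0.03 with shMAFK, and 0.02 and 0.08 with shSMARCA4. In shKDM1A, 27 of 206 LTRs and 1 of 63 internal parts were higher at an unadjusted p under 0.05, against 5.85% of all rows. In shSMARCA4, both libraries lay below the controls for 13 of 63 internal parts (20.6%) and 20 of 206 LTRs (9.71%), against 25.4% of all rows. The difference between LTRs and internal parts was not tested.

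HERVH48-int and its LTR, MER48, had their lowest and highest groups in common with the ERVH48-1 gene shown above. HERVH48-int was at 690 and 793 in shLUC, 572 and 598 with shMAFK, 936 and 844 with shE2F6, 646 and 597 with shSMARCA4, and 706 and 938 with shKDM1A. MER48 was at 268 and 246, 203 and 178, 345 and 290, 248 and 240, and 251 and 308 in the same order. ERVH48-1 was at 624 and 564, 376 and 218, 980 and 828, 446 and 318, and 311 and 670. In all 3 rows both shMAFK libraries lay below and both shE2F6 libraries above the controls.

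The log2 differences in shMAFK were -0.34 (SE 0.18, adjusted p = 0.656) for HERVH48-int, -0.43 (SE 0.18, adjusted p = 0.532) for MER48 and -1.05 (SE 0.37, adjusted p = 0.426) for ERVH48-1 in limma. In shE2F6 they were 0.27, 0.30 and 0.60, with an adjusted p of 1.0 each. Across the 4 knockdowns the F-test gave adjusted p of 0.128, 0.107 and 0.0816. The gene and the subfamily rows can count the same reads, so the 3 rows are not independent. Without the shKDM1A libraries the F-test adjusted p was 0.0304 for HERVH48-int and 0.0335 for MER48.

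**Figure D5:**
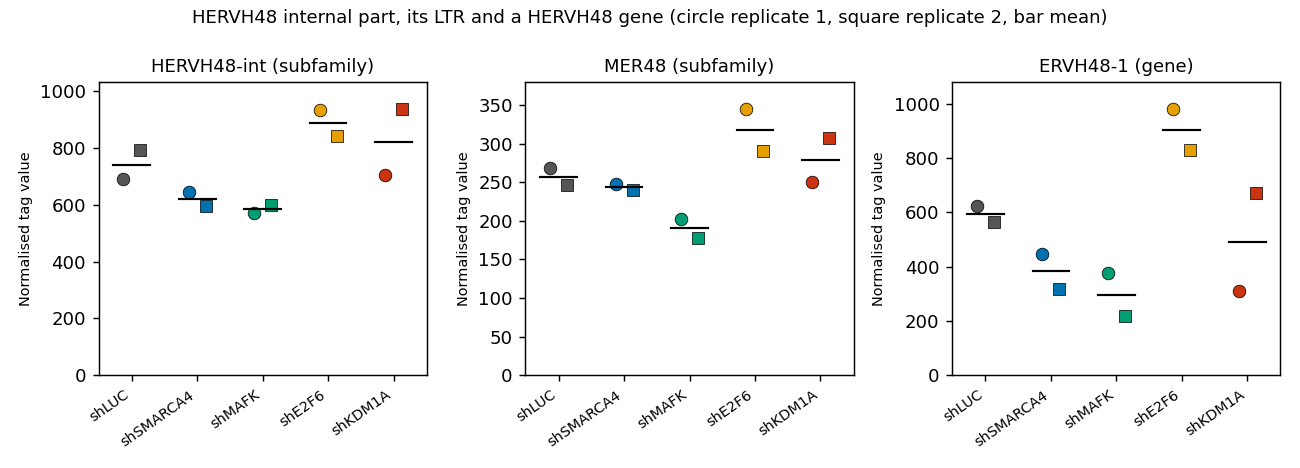
Normalised tag values of HERVH48-int, MER48 and the ERVH48-1 gene in each library (circle replicate 1, square replicate 2, bar mean of 2). In each panel the shMAFK pair lies below and the shE2F6 pair above the shLUC pair.

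ERV3-1 and ERVMER34-1 were nearer to the controls. ERV3-1 was at 348 and 340 in shLUC and at 236 to 401 in the knockdowns, with its lowest value in shKDM1A replicate 1. ERVMER34-1 was at 156 and 146 in shLUC and 211 and 185 in shE2F6, a log2 difference of 0.39 (adjusted p = 0.987 in limma). The other 4 listed envelope genes, ERVW-1, ERVFRD-1, ERVV-1 and ERVV-2, were not analysed here.

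The factors that silence or bind ERV1 were followed from 2 lists. All 28 silencing factors, which include TRIM28, the SETDB1 methyltransferase and KDM1A, were in the table and 0 of 28 passed in either direction in any of the 4 comparisons, by limma, with median log2 differences of 0.01 to 0.11. At an unadjusted p under 0.05 there were 2 in shSMARCA4 (CBX5 and HDAC2), 3 in shMAFK (CBX1, EHMT2 and SUV39H1), 1 in shE2F6 (DNMT3B) and 3 in shKDM1A (FAM208A, SUV39H1 and KDM1A itself), named after their values were seen. Of all rows, 7.78% were higher and 8.53% lower at that p in shSMARCA4, 4.27% and 4.49% in shMAFK, 2.55% and 2.54% with the E2F6 hairpin, and 5.85% and 5.61% in shKDM1A. SETDB1 was at 1225 and 1269 in shLUC and at 1066 to 1353 in the knockdowns. TRIM28 was at 19692 and 18607 in shLUC and reached 30768 in shKDM1A replicate 1 and 27326 in shE2F6 replicate 2. Of 10 factors known to bind ERV1 LTRs, 8 were in the table and 0 passed in limma, with 1, ZNF808 in shSMARCA4, at an unadjusted p under 0.05.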

How the data were processed

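The counter, the annotation and the normalization are not given in the sources used here; per the submitters' processing notes, STAR and STARsolo and the hg38 build were used, with no role stated. The deposited values are a score: tag counts that the authors normalized and rounded to whole numbers, in which libraries share the same set of values (LTR12C is listed at 14834 in 3 of 10 libraries) and depth is lost. All 10 value columns were mapped to samples by name, and 0 were left unmapped.

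Values were tested as log2(value + 1) for 14785 rows with a mean of at least 10, with limma 3.58.1 in R 4.3.3 (1 coefficient per group, all 10 libraries in 1 fit, mean-variance trend), Benjamini-Hochberg adjustment over all rows and a threshold of 0.05. A moderated F-test compared the 4 knockdowns. Fold changes on this scale understate those of low rows. The fit was tested on simulated data. Tables and figures were made with Python 3.11.15, pandas 2.3.3 and matplotlib 3.10.9.

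Subfamilies are named where they passed a test, had among the 4 largest differences each way without overlap (higher-group mean of at least 50), or ranked highest, lowest, most or least variable. Other rows were named as members of a family described, and LTR6A as the pair of LTR6B. The members and lists were chosen with earlier results of these data known. Alternatives changed the pseudocount, the filter, the centring, the normalization, the variance model, the groups fitted and the libraries.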

Additional observations from a re-analysis of the deposited data

How the results depend on the processing

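With 2 libraries a group, 33 named results gave 675 values under 21 alternative settings. Of these, 650 kept direction and side of the threshold, 17 passed it newly, 8 lost it and 0 turned direction. All but the F-test of LTR49-int are differences picked for not overlapping the controls. Leaving out a library or changing pseudocount, filter or variance model could not turn those, so the 0 is largely fixed by that choice. The median differences of the ERV1 subfamilies are not in this tally. With TE-median centring they turned from 0.075 to -0.03 in shSMARCA4 and from 0.084 to -0.101 in shKDM1A. They stayed above 0 in shMAFK (0.012) and shE2F6 (0.002). The counts of subfamilies past the threshold stayed at 0 in shMAFK and shE2F6 under every setting run. In shSMARCA4 the count was 3 with group weights, 2 without both shKDM1A libraries and 0 to 2 with 1 library left out. In shKDM1A it was 0 to 39 with 1 library left out, and the 39 came without shKDM1A replicate 2. At an unadjusted p under 0.05 the 28 higher and 2 lower subfamilies of shKDM1A became 6 and 2 with group weights. They became 8 and 0 when only the shKDM1A and shLUC libraries were fitted, with no share of all rows beside either pair. In the F-test the count was 2 with TE-median centring (HERVI-int at an adjusted p of 0.0241 beside LTR49-int at 0.0273), 3 with group weights, 6 without both shKDM1A libraries and 0 to 39 with 1 library left out. The cause of these moves was not tested beyond the libraries named.

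The median log2 difference of the 269 subfamilies was -0.03 in shSMARCA4 and -0.101 in shKDM1A with TE-median centring, and with 1 library left out it ran from -0.033 to 0.151 in shSMARCA4, -0.043 to 0.079 in shMAFK, 0.042 to 0.125 in shE2F6 and 0.02 to 0.183 in shKDM1A. An alternative chosen after seeing the data took each shKDM1A library alone: 116 to 181 subfamilies were then above both controls and 18 to 110 below, with no share over all rows beside them.

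With the replicate number as a block, 0 subfamilies passed the F-test (LTR49-int adjusted p = 0.0502) and no count in the 4 comparisons changed. The deviations of same-numbered libraries correlated at -0.05 to 0.337 over all rows, so the numbers were not taken as pairs.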
